A study of Mus musculus with 6 samples.

Results

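Bone morphogenetic protein (BMP) signalling and the ID genes it switches on were examined through 10 genes: the ligand gene Bmp4, the receptor genes Bmpr1a and Bmpr2, the pseudoreceptor gene Bambi, the signal carriers Smad1 and Smad5, the inhibitor Smad6, and the target genes Id1, Id2 and Id3. They were chosen by name, and all 10 had a row in a table of 13341 genes. The samples were mouse hepatic stellate cells, liver pericytes that store vitamin A, in 2 groups of 3 libraries labelled as biological replicates, with the genotype given as wild type (WT) or as Nbr1 knock-out (KO). Every culture had 4 days in DMEM with 10% fetal bovine serum, glutamine and antibiotics, without further treatment. NBR1 is a cargo receptor of selective autophagy, and the series concerns the STING pathway in these cells and its control by NBR1 and p62. Strain, age, sex, how the knock-out was made and whether the replicates came from separate animals are not given in the sources used here, so p-values measure the spread between these libraries.

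BMP ligands bind paired type II and type I serine/threonine kinase receptors, and the type I receptor then phosphorylates SMAD1, SMAD5 and SMAD9. These join SMAD4, enter the nucleus and turn on genes that include the ID family and Smad6. ID proteins carry a helix-loop-helix but no DNA-binding region, and so hold other helix-loop-helix factors off DNA. SMAD6 feeds back on BMP receptors, and BAMBI resembles a type I receptor without a kinase and is known in stellate cells for damping TGF-beta signals.

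Id1, Id2 and Id3 are paralogs, so the sequences were compared to see whether reads of one could be taken for another. The most alike coding stretch of 60 bases, read from GENCODE transcripts on GRCm38, is shown with the 43 bases identical in all 3 genes (71.7%) in capitals. It covers bases 247 to 306 of the Id1 coding sequence, 178 to 237 of Id2 and 193 to 252 of Id3.
Id1: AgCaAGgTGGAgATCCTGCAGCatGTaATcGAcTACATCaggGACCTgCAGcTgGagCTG
Id2: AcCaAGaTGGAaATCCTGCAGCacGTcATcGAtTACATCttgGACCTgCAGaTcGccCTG
Id3: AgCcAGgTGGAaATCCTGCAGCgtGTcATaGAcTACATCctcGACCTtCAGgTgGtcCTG
The longest exact run shared by any 2 of the 3 was 19 bases, between Id2 and Id3, against a read length of 75 nucleotides. Bmp2 and Bmp4 shared at most 16 bases, and Smad1 and Smad5 17, so an exact full-length read would separate each of these pairs.

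Promoters were searched for short sequences that SMAD complexes are known to bind: GGCGCC and GTCTAGAC, which read the same on both strands, and CAGAC on either strand. RefSeq promoters on GRCm38.p6, from 250 bases before to 50 after the start, were at hand and used for 8 of the 10 genes. Id1 and Bambi were not searched. GGCGCC was present for 4 of these 8 (Id2, Bmpr1a, Bmpr2 and Smad5) and in 11.9% of all 32851 promoters. GTCTAGAC was present for Smad6 alone among the 8, and in 0.213% of all promoters. CAGAC was present for Id3 and for 1 of the Smad5 promoters, and in 49.6% of all promoters. The counts for the 8 genes take a match in any promoter of a gene, and 1 of the Smad5 promoters lacked GGCGCC. The shares are of single promoters (32851 for 27025 genes), so counts and shares differ in unit. A match describes these letters only, and GC content was not matched. Stretches of 60 bases are shown for the inhibitor with the rarest motif, for an ID gene and for both receptors, with the motif in capitals.
Smad6, minus strand, chr9:64022056-64022115: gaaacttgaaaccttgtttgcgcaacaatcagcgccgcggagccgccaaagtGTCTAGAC
Id2, minus strand, chr12:25096283-25096342: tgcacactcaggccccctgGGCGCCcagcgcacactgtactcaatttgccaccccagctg
Bmpr1a, minus strand, chr14:34502712-34502771: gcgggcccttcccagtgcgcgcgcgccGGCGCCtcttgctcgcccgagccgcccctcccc
Bmpr2, plus strand, chr1:59764147-59764206: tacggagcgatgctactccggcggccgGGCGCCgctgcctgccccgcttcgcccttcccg
The Smad6 motif spans the annotated start, from base -4 to base 4. The motif lies from base -231 to -226 in Id2, from -198 to -193 in Bmpr1a and from -105 to -100 in Bmpr2.

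Values below are the authors' normalized counts of transcript 3' ends, which do not grow with transcript length. Whole reads recovered from them came to between 1508518 and 2383879 per library, and 1 read is worth between 0.8398 and 1.334 normalized counts. The targeted gene Nbr1 stood at 204.1, 278.0 and 288.7 in WT libraries 1 to 3 and at 203.7, 188.2 and 175.6 in KO libraries 1 to 3 (log2 change -0.43, SE 0.18, limma adjusted p = 0.22). A 3' tag does not check a deletion elsewhere in the gene. Sqstm1, which encodes p62, stood at 10.9 to 24.0 in the WT label and at 644.6 to 859.1 in the KO label, a 48.7-fold difference in the means. Neither gene shows which cultures lacked NBR1, and whether labels or cultures were exchanged could not be settled from these values. WT and KO below are therefore the names of the labels, and every direction is that of the labels. Of 14 stellate cell markers 9 had a value, with a summed level of 6351.9 to 8410.7 in the WT label and 15618 to 18652.8 in the KO label. Most of both sums came from the matrix genes Col1a1, Col1a2, Col3a1 and Dcn. Pdgfrb (36.8 ± 13.7 against 138.3 ± 12.9) and Lhx2 (14.1 ± 2.0 against 39.2 ± 6.5) added little to it. Lrat, Reln, Des, Hgf and Ngfr had none to analyse. The libraries also divided across genotype. By clustering of their deviations from the group means, WT library 1 and KO libraries 1 and 3 formed one set (set A) and WT libraries 2 and 3 and KO library 2 the other (set B). What the sets are was not given by the labels.

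None of the 10 genes passed the test between the genotype labels. With limma on log2(normalized count + 1) and adjustment over all 10540 tested genes, 0 of the 10 changed at an adjusted p under 0.05, where 6.92% of all tested genes did (4.67% higher and 2.25% lower). edgeR and DESeq2 on the recovered reads also called 0. Bmpr1a, Smad1 and Smad6 had an unadjusted limma p under 0.05, as did 2379 of all 10540 tested genes. The ranges of the groups did not overlap for 4 of the 10 genes, Smad1 and Smad5 higher and Bmp4 and Bmpr1a lower in the KO label, as for 30.1% of all tested genes. The median log2 change was -0.19 over the 10 genes and -0.01 over all tested genes. In simulated counts with the spread of these libraries the test found 13 of 50 genes changed 2-fold and 44 of 49 changed 4-fold, so most shifts of the size seen here would be missed.

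**Figure D1:**
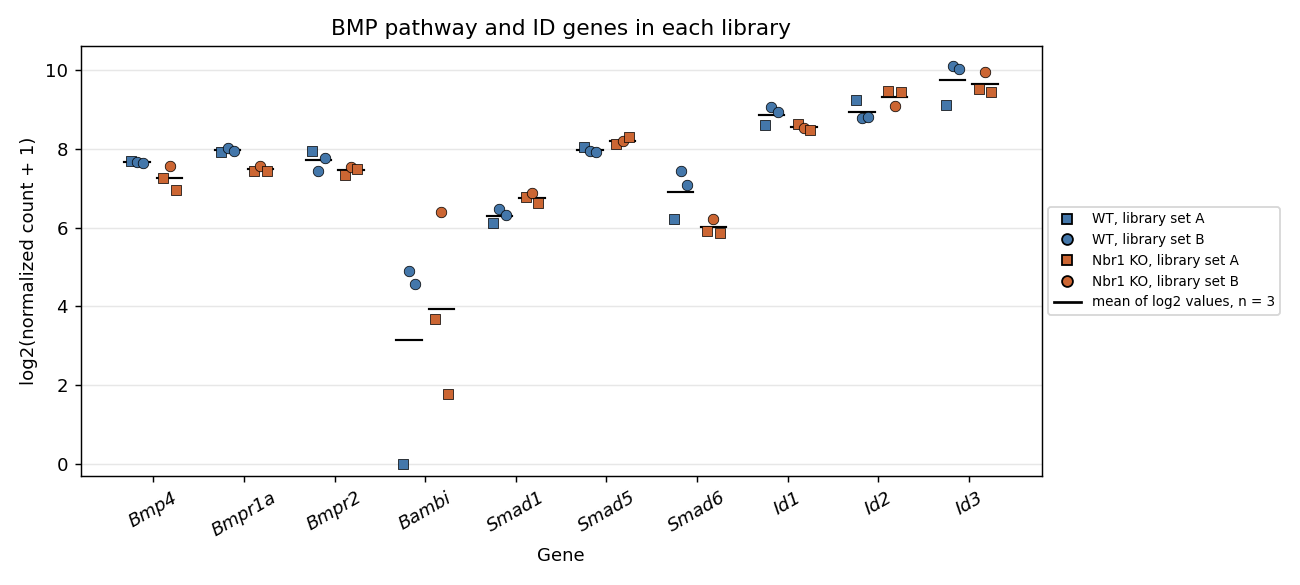
Each point is 1 library's log2(normalized count + 1) for a gene on the horizontal axis, blue for WT and orange for Nbr1 KO, squares for set A and circles for set B, with a bar at each group's mean of log2 values (n = 3). By group mean the ID genes are the most abundant and Bambi the least, though KO 2 holds more Bambi (82.5) than Smad6 (73.9). WT 1 holds no Bambi read.

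The ligand gene Bmp4 was steady in the WT label and lower in the KO label. It stood at 205.5, 199.9 and 197.0 normalized counts in WT libraries 1 to 3 and at 152.1, 187.4 and 123.4 in KO libraries 1 to 3. Every KO value lay below every WT value, but KO library 2 by little, and the KO values spread more (mean 200.8 ± 4.3 in WT and 154.3 ± 32.0 in KO, SD, n = 3 in each). A log2 change of -0.40 (95% interval -0.84 to 0.04) did not pass (limma adjusted p = 0.265).

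Bmpr1a encodes the type I receptor ALK3, the main one for BMP2 and BMP4. Its values were 241.5, 258.7 and 243.3 normalized counts in the WT label and 171.1, 188.2 and 173.2 in the KO label. The groups did not overlap, and the spread within each was small (247.8 ± 9.4 against 177.5 ± 9.3). The WT mean was 1.40-fold the KO mean, and the log2 change was -0.48 (SE 0.13, 95% interval -0.79 to -0.17, limma adjusted p = 0.0816). Without WT library 1 the gene passed (limma adjusted p = 0.0341).

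Bmpr2 encodes the type II receptor that is selective for BMPs. It stood at 246.8, 173.0 and 217.9 normalized counts in the WT label and at 159.3, 185.6 and 178.0 in the KO label, so the groups overlapped. Its log2 change was -0.27 (95% interval -0.69 to 0.15, limma adjusted p = 0.433).

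Bambi was the least abundant of the 10 by group mean and the most variable. It had 0, 28.6 and 22.7 normalized counts in WT libraries 1 to 3 and 11.8, 82.5 and 2.4 in KO libraries 1 to 3. The 0 in WT library 1 allows up to 3 reads, or 4.00 normalized counts, by counting error alone. All 3 libraries of set B lay above all 3 of set A, in both genotypes. The log2 change between the labels was 0.79 with a 95% interval from -3.03 to 4.60 (limma adjusted p = 0.83), and it turned to -0.79 without WT library 1 and to -0.44 without KO library 2.

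Smad1 and Smad5 encode the SMADs that BMP receptors phosphorylate. Smad1 stood at 68.0, 87.3 and 79.0 normalized counts in the WT label and at 107.7, 116.9 and 97.3 in the KO label, with no overlap. The KO mean was 1.37 times the WT mean (log2 change 0.46, SE 0.18, limma adjusted p = 0.186). Smad5, the more abundant of the pair, stood at 264.2, 245.2 and 238.8 against 277.0, 291.4 and 310.9, also with no overlap. Its mean was 1.18-fold higher, with a log2 change of 0.23 (95% interval -0.07 to 0.54, limma adjusted p = 0.358). Within every library Smad5 exceeded Smad1, by 2.49-fold to 3.88-fold.

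Smad6, the BMP-induced inhibitor, showed the largest difference of the abundant members. It stood at 73.4, 172.2 and 133.5 normalized counts in WT libraries 1 to 3 and at 59.7, 73.9 and 57.0 in KO libraries 1 to 3. WT library 1 lay just under the highest KO library, and the other WT libraries lay well above all 3. The WT mean was 1.99-fold the KO mean (126.3 ± 49.8 against 63.5 ± 9.1), with a log2 change of -0.91 (SE 0.33, 95% interval -1.68 to -0.13, limma adjusted p = 0.16). Without WT library 1 the log2 change was -1.25 and passed (limma adjusted p = 0.00704). Within set A it was -0.33 and within set B -1.03, each with a single library in one group and so without a test. The ratio of Smad6 to Smad1 within a library does not depend on library scaling. It was 1.08, 1.97 and 1.69 in WT libraries 1 to 3 and 0.555, 0.632 and 0.585 in KO libraries 1 to 3. In WT library 1 the 2 transcripts were near equal, at 55 reads of Smad6 and 51 of Smad1. The Smad6 transcript exceeded that of Smad1 in WT libraries 2 and 3 and stayed below it in all 3 KO libraries. It stayed below that of Smad5, the more abundant signal carrier, in every library of both groups. The pair of Smad6 and Smad1 was chosen after its values were seen and was not tested.

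The ID genes were the most abundant of the 10 in both groups. Id1 stood at 388.2, 533.3 and 483.9 normalized counts in the WT label and at 396.5, 364.4 and 357.2 in the KO label. WT library 1 fell among the KO values, and the log2 change was -0.32 (95% interval -0.69 to 0.05, limma adjusted p = 0.295). Without that library the change was -0.45 and passed (limma adjusted p = 0.0353).

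Id2 pointed the other way. It stood at 603.0, 435.0 and 448.5 in the WT label and at 702.5, 536.3 and 693.0 in the KO label, with WT library 1 above KO library 2. Its log2 change was 0.38 (95% interval -0.06 to 0.82, limma adjusted p = 0.288). It too passed without WT library 1, with a log2 change of 0.53 (limma adjusted p = 0.041). With Bmpr1a, Smad6 and Id1 that makes 4 of the 10 genes past the threshold when this library is left out, against 0 of 10 without any other single library. Over all genes the calls then rise from 729 to 2228.

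Id3 followed the library sets more than the genotype labels. It stood at 555.0, 1096.8 and 1045.0 normalized counts in WT libraries 1 to 3 and at 731.4, 984.9 and 693.0 in KO libraries 1 to 3. The 3 libraries of set B held more than the 3 of set A, by 1.58-fold in the mean. Its log2 change between the labels was -0.12 (95% interval -0.81 to 0.57, limma adjusted p = 0.863), at 0.36 within set A and -0.12 within set B.

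Summed over the 3 ID genes, the level was 1863 ± 278 normalized counts in the WT label and 1820 ± 71.9 in the KO label (SD, n = 3 each), a difference smaller than the spread. Id1 made up 25.1%, 25.8% and 24.5% of that sum in WT libraries 1 to 3 and 21.7%, 19.3% and 20.5% in KO libraries 1 to 3. This share does not depend on library scaling, and its groups did not overlap (25.1% ± 0.651 against 20.5% ± 1.2). The shares of Id2 and Id3 overlapped between the groups and divided by library set, with Id2 at 38.4% to 39.8% in set A and 21.1% to 28.4% in set B. The share of Id1 was picked out after the values were seen and has no test.

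**Figure D2:**
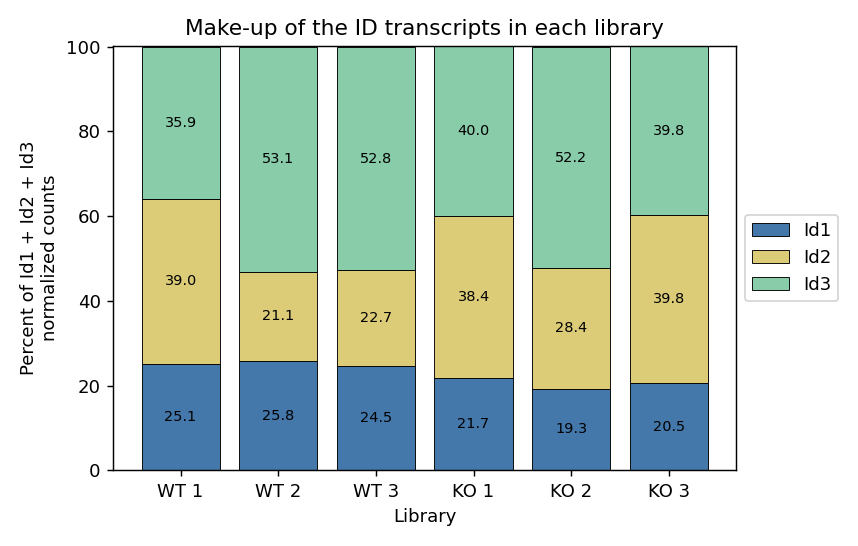
Stacked bars give, for each of the 6 libraries, the percent of the summed Id1, Id2 and Id3 normalized counts that each gene contributes. Id1 takes 24.5% to 25.8% in WT and 19.3% to 21.7% in KO, and Id2 takes 38.4% to 39.8% in WT 1, KO 1 and KO 3 and 21.1% to 28.4% in the other libraries.

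By mean level the order in the WT label was Id3, Id2, Id1, Smad5, Bmpr1a, Bmpr2, Bmp4, Smad6, Smad1 and Bambi. Values of Id3, Id2 and Id1 overlapped from one to the next, as did those of Smad5 with Bmpr1a, Bmpr1a with Bmpr2, Bmpr2 with Bmp4 and Smad6 with Smad1. The order in the KO label was the same except that Smad1 stood above Smad6, with no overlap. There Id3 overlapped Id2, Id1 and Smad5 took ranges of their own, Bmpr1a, Bmpr2 and Bmp4 overlapped, and Smad6 overlapped Bambi.

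The library sets divided the 10 genes as often as other genes. Values of set A and set B lay apart for 4 of the 10, with Id3, Bambi and Smad6 higher in set B and Id2 higher in set A, and for 40% of all tested genes. Set B was 2.0-fold above set A in the mean of Smad6, and set A 1.41-fold above set B in that of Id2. Inside each set the genotype difference kept one sign for 9 of the 10 genes and turned for Id3. Some of these differences were near 0: -0.04 for Id1 in set A, and -0.06 for Bmpr2 and -0.08 for Bmp4 in set B. The share of all tested genes that kept one sign was not counted, so the 9 of 10 has nothing to be set against. For the genes whose groups do not overlap a shared sign is given by that choice. With a term for the sets, Bambi and Smad1 passed as higher and Bmpr1a and Smad6 as lower (limma adjusted p between 0.0149 and 0.0329). The sets were drawn from the deviations that serve as the test's error, and with that term 2791 genes passed.

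**Figure D3:**
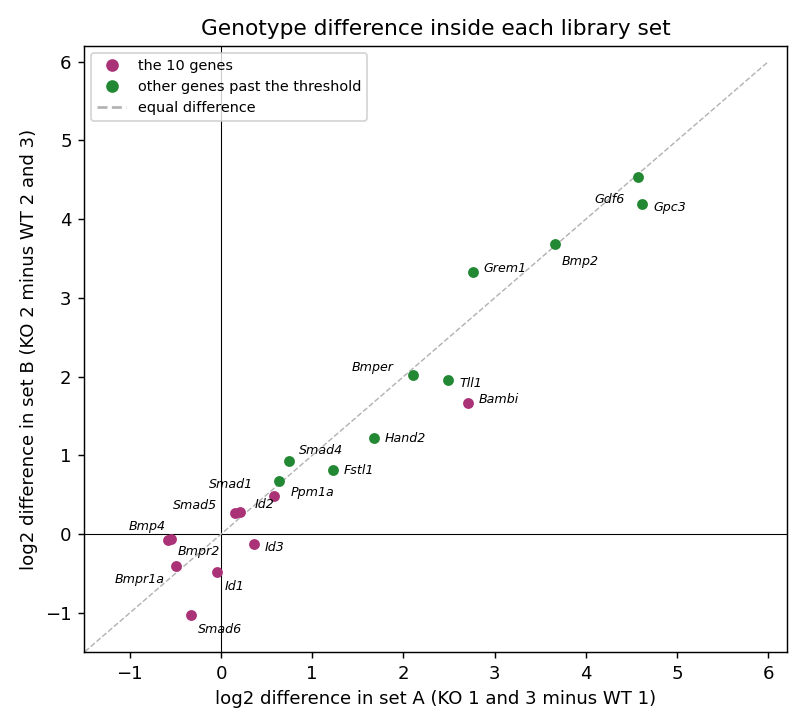
The horizontal axis is the log2 difference of KO 1 and KO 3 from WT 1, and the vertical axis that of KO 2 from WT 2 and WT 3, for the 10 genes (purple) and for the other pathway genes past the threshold (green), with equal differences on the dashed line. Bmp2 lies on the line at 3.66 and 3.69, whereas Smad6 differs more on the vertical axis and Bmp4 on the horizontal.

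By likeness of pattern, only Smad6 and Bambi varied enough to be matched, with a span of at least 1 on the log2 scale. The measure was the root mean square difference of centred log2 profiles over the 6 libraries. Nearest to Smad6 were the mitotic genes Ube2c (0.09) and Kif20a (0.10), out of 6715 candidates. Ube2c, which encodes a ubiquitin-conjugating enzyme of mitosis, stood at 281.5, 624.0 and 515.7 in the WT label and at 247.1, 332.6 and 227.8 in the KO label, and so shares the low WT library 1. Nearest to Bambi were Gnb2 (0.61) and Dscc1 (0.63), both lowest in WT library 1 and high in set B.

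Around these 10 genes, the wider pathway was read from a list of 99 genes of ligands, receptors, extracellular modulators, SMADs and their regulators, targets and helix-loop-helix factors. Of its other 89 genes 48 were tested, and 10 rose and 0 fell in the KO label (20.8%, against 6.92% of all tested genes). Among the 10, Gdf6, Gpc3, Grem1 and Tll1 lay under 10 normalized counts in every WT library. They met the minimum for testing only through the KO label, where they are high. The list was drawn up with earlier results of these data known, so the higher share is no independent support. For the 0 lower calls, 2 genes had a negative change with an unadjusted limma p under 0.05 (Gata4 and Mxd1), edgeR called 0 lower and DESeq2 called 1, Gata4. The median log2 change of the 48 was 0.16. By role, leaving out the 10 genes, 2 of 3 tested ligands, 5 of 10 extracellular antagonists or modulators and 0 of 7 receptors or co-receptors rose, and no test compared these shares.

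Bmp2, a ligand of the same subgroup as Bmp4, rose 13.7-fold. It stood at 25.3, 24.4 and 20.9 normalized counts in WT libraries 1 to 3 and at 306.9, 302.5 and 360.7 in KO libraries 1 to 3. The gap far exceeded the spread within either group (23.5 ± 2.3 against 323.4 ± 32.4, log2 change 3.73, SE 0.17, limma adjusted p = 0.000337), and the change was 3.66 within set A and 3.69 within set B. Bmp2 thus went from 0.106 to 0.123 of the Bmp4 level in the WT libraries to between 1.61 and 2.92 times that level in the KO libraries. The sum of both ligands was 224.3 ± 6.45 against 477.6 ± 16.5. Endothelial cells are a known source of BMP2 in liver. Of 12 endothelial markers 2 had a value, Kdr and Egfl7, with a summed level of 35.3 to 132.1 in the WT label and 35.2 to 70.0 in the KO label, and Pecam1, Cdh5, Tek and Stab2 were among those without one. In bulk RNA, fewer cells of a type and less RNA per cell cannot be told apart. Gdf6, another ligand of the BMP group, had 2 reads over the WT label and 88 over the KO label, a ratio of 43.0 (95% exact binomial interval 11.6 to 361, counting error only; limma adjusted p = 0.00526).

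Grem1, which encodes the secreted protein gremlin-1 that traps BMP2 and BMP4, rose. It stood at 4.0, 1.7 and 1.8 against 38.0, 26.6 and 28.5 normalized counts, 12.4-fold higher (limma adjusted p = 0.00398). Of 8 smooth muscle and pericyte markers 5 had a value, and Myh11, Rgs5 and Des had none. The summed level of the 5 was 2.7 to 5.3 in the WT label and 55.0 to 71.2 in the KO label. Most of the KO sum came from Cnn1 and Lmod1, the only 2 tested, and both rose. Notch3 overlapped. Actg2 (2 against 13 reads) and Cspg4 (1 against 10 reads) were higher on few reads. Markers of other cell types moved too. Of 4 tested portal fibroblast markers, Thy1 (2.8 ± 1.2 against 31.8 ± 6.9, limma adjusted p = 0.00408) and Eln (14.5 ± 6.4 against 60.9 ± 14.2, limma adjusted p = 0.0171) rose. Fbln2 was higher and Cd34 lower without overlap, and neither passed. The sum of 5 portal fibroblast markers overlapped, at 592.9 to 888.5 against 832.8 to 889.8. The sum of 5 cholangiocyte and epithelial markers was 141.9 to 162.8 against 602.5 to 666.9, where Sox9 and Cdh1 rose and Spp1 fell. That of 6 hepatocyte markers was 130.7 to 147.1 against 386.8 to 435.5, and this rise was that of Trf (91.8 ± 6.1 against 375.7 ± 11.9). Means of Alb (22.3 against 13.0), Apoa2 (7.3 against 2.6), Fgb (11.2 against 8.7) and Ttr (6.0 against 4.9) were lower. Alb did not pass, and Apoa1 was higher on 4 against 8 reads. Hepatocyte markers other than Trf and Alb were too low to be tested. The sum of 7 mesothelial markers was lower, at 1807.8 to 2112.8 against 1307.1 to 1580.5. Of the 6 tested only Upk3b fell (181.5 ± 6.7 against 68.0 ± 17.9). Gpm6a, the largest part of the sum, was lower (1050.8 ± 125.5 against 813.0 ± 38.3), as was Wt1, without overlap, but neither passed. Msln was higher without overlap (14.2 ± 4.3 against 22.8 ± 3.6) and did not pass, and Lrrn4 and Upk1b overlapped. The part of these cell types in the results was not tested.

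**Figure D4:**
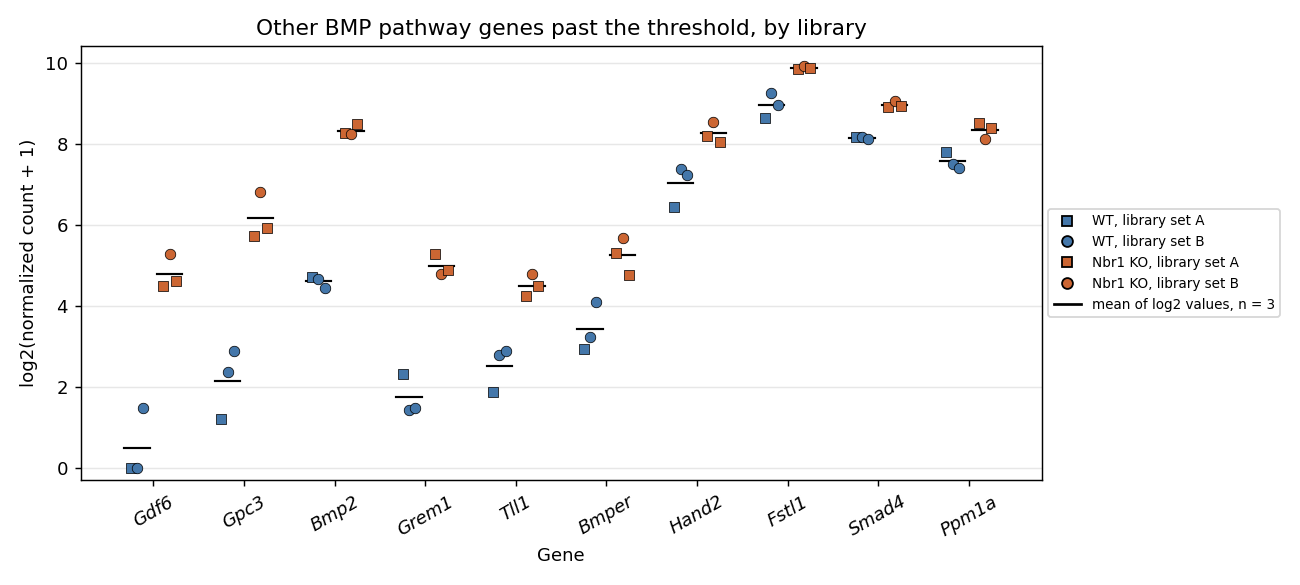
Each point is 1 library's log2(normalized count + 1) for the 10 other pathway genes that rose, in the colours and shapes of sets and genotypes used for the 10 genes, with bars at the means of log2 values (n = 3). The groups do not overlap for any of the 10 plotted genes.

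Other extracellular modulators rose as well. Gpc3, which encodes the cell-surface proteoglycan glypican-3, stood at 1.3, 4.2 and 6.4 against 52.5, 111.7 and 60.5 normalized counts, 18.9-fold higher (limma adjusted p = 0.00611). Tll1, whose protease cleaves the BMP antagonist chordin, rose 4.44-fold from 5.0 ± 2.0 to 22.0 ± 4.3 (limma adjusted p = 0.0258). Bmper, which encodes a secreted BMP-binding protein, rose 3.68-fold from 10.5 ± 5.2 to 38.6 ± 12.3 (limma adjusted p = 0.0449). Fstl1, a follistatin-like glycoprotein gene, rose 1.87-fold from 505.4 ± 108.2 to 946.6 ± 27.2 (limma adjusted p = 0.0261). Of the 5 tested members that did not pass, Crim1 was the most abundant (537.3 ± 40.5 against 525.8 ± 27.9, log2 change -0.03, 95% interval -0.32 to 0.26).

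Among 16 other tested SMADs and regulators, Smad4 and Ppm1a rose. Smad4, the partner shared by BMP and TGF-beta SMADs, stood at 289.5, 288.1 and 276.9 against 479.8, 538.0 and 490.1 normalized counts, 1.76-fold higher (limma adjusted p = 0.0112). Ppm1a, a phosphatase gene whose product removes phosphate from SMADs, rose 1.70-fold from 192.1 ± 28.3 to 327.4 ± 43.2 (limma adjusted p = 0.048). Ppm1a lost the call in 8 of 17 alternatives, among them limma without a trend (adjusted p = 0.0721), the replicate block (0.0715) and a mean of at least 50 (0.056). Smad9 (28.2 ± 5.6 against 19.3 ± 5.8) and the inhibitor Smad7 (65.2 ± 20.9 against 67.0 ± 5.5) did not pass. Of the receptors, the co-receptor endoglin gene Eng (90.9 ± 44.9 against 54.5 ± 3.8) and Acvr1 (51.5 ± 43.9 against 40.1 ± 47.0) were among those that did not. Acvr1, a type I receptor gene, had 1.3 normalized counts in WT library 1, 20.8 and 5.9 in KO libraries 1 and 3 and 70.5 to 93.7 in set B.

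Of 8 other tested BMP target genes only Grem1, which the list also counts as an antagonist, rose, and 0 fell by limma or edgeR. Gata4, a zinc finger factor gene, had the largest negative change of the wider list, at 21.3, 23.5 and 17.3 normalized counts against 5.4, 0.9 and 8.3 (log2 change -2.16, SE 0.61, limma adjusted p = 0.0906). It passed in DESeq2, and its mean was 20.7 ± 3.2 against 4.9 ± 3.8. The BMP-responsive gene Atoh8 stood at 348.2, 168.8 and 149.8 against 248.9, 151.3 and 231.4 normalized counts, higher in set A than in set B in both genotypes (log2 change -0.01, 95% interval -0.86 to 0.85).

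Of 7 tested helix-loop-helix factors only Hand2 rose. Hand2, a transcription factor gene of the stellate cell lineage, stood at 86.7, 168.0 and 150.7 against 293.3, 371.3 and 267.0 normalized counts, 2.30-fold higher (limma adjusted p = 0.0475). Hand2 also lost the call in 8 of 17 alternatives, among them limma without a trend (adjusted p = 0.0622), TMM scaling (0.0504) and a mean of at least 50 (0.058). The E protein genes Tcf3, Tcf4 and Tcf12, whose products ID proteins bind, did not pass. Tcf4, the most abundant of them, had 370.9 ± 34.2 against 355.1 ± 27.4 normalized counts, with a log2 change of -0.06 (95% interval -0.39 to 0.26). Tcf3 had a log2 change of -0.02 (95% interval -0.42 to 0.37) and Tcf12 of 0.19 (95% interval -0.18 to 0.56).

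**Figure D5:**
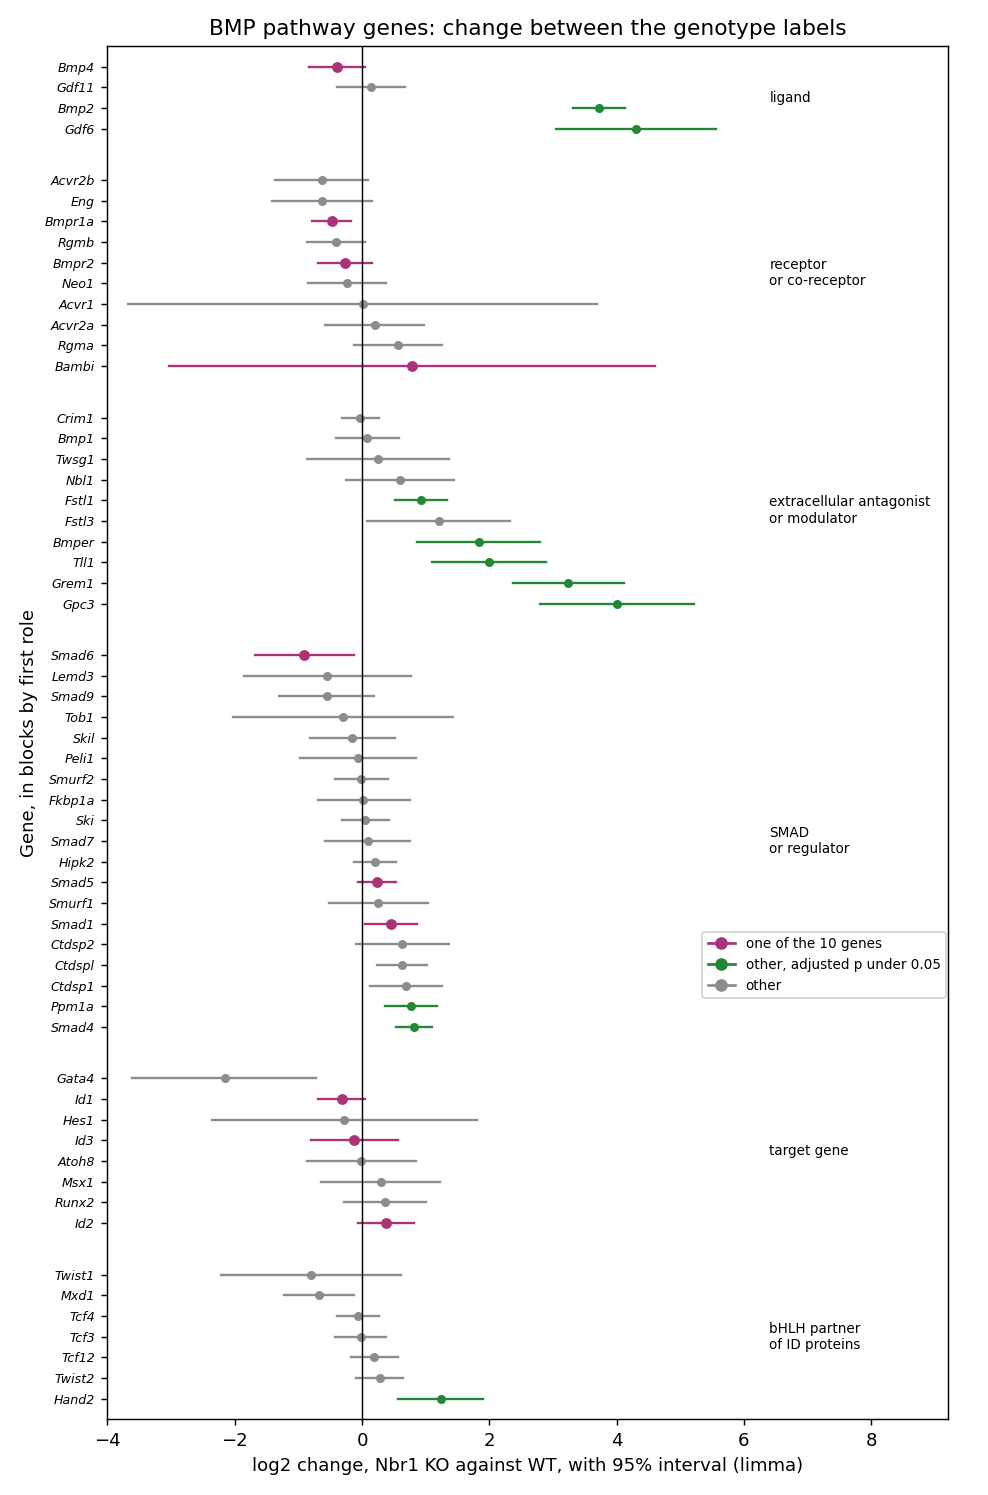
Points give the limma log2 change of Nbr1 KO against WT and lines its 95% interval, for the 58 tested genes of the wider list in blocks by their first role, purple for the 10 genes and green for others at an adjusted p under 0.05. All green points lie to the right of 0, 7 of them among ligands and extracellular modulators, and the purple points lie between -0.91 (Smad6) and 0.79 (Bambi).

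Bmp2, Gdf6, Gpc3 and Grem1 passed under every alternative in which they were tested. Of these, Gdf6, Gpc3 and Grem1 met the minimum for testing through the KO label alone. Without WT library 2 the number of wider-list genes that rose was 5 in place of 10, and it was 5 without WT library 3 and 4 without any 1 of the KO libraries. The genes lost in 1 or more of these fits were Smad4, Fstl1, Tll1, Bmper, Ppm1a and Hand2, with adjusted p in limma up to 0.0772, 0.13, 0.106, 0.191, 0.229 and 0.179. Their log2 changes in the fits that lost the call stayed at 0.77 to 0.85 for Smad4, 0.90 to 0.94 for Fstl1, 1.86 to 2.18 for Tll1, 1.61 to 2.08 for Bmper, 0.68 to 0.87 for Ppm1a and 1.10 to 1.42 for Hand2. Calls over all genes fell as well, from 729 to between 200 and 338 without any 1 of these 5 libraries.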

How the data were processed

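Of each RNA sample 200 ng went into 3' end libraries (QuantSeq FWD) read as single ends of 75 nucleotides, per the labels' protocols. DESeq2 (no version) and the build GRCm39 come from the submitters' processing notes. Aligner, annotation and use of strand or molecular identifiers are not given in the sources used here. Per the file headers and values, the authors deposited a normalized count signal with 1 factor per library; within 0.01, 100% of its values gave a whole number of reads, which were used as recovered reads. Every listed gene had at least 9 reads in all.

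Genes at 10 or more in at least 3 libraries were tested (10540) with limma 3.58.1 in R 4.3.3, two-sided with a variance trend, on log2(value + 1), which understates changes of low genes. Adjustment was by Benjamini-Hochberg at 0.05. Folds beside means are ratios of group means. The 17 alternatives included edgeR 4.0.16, DESeq2 1.42.0 and a library left out in turn. The script was tested on simulated data. The members, lists and alternatives were chosen with earlier results of these data known. Named were the 10 members, Nbr1, Sqstm1, every other list gene past the threshold, up to 3 abundant genes per role, and the 2 genes most like a member that spans at least 1 on the log2 scale with a mean of at least 10, among genes with a mean of at least 50. Other genes named were chosen after their values were seen. A gene that would have belonged to the wider list is not reported here.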

Additional observations from a re-analysis of the deposited data

How the results depend on the processing

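In all 17 alternatives but 2, 0 of the 10 genes passed. Those were the model with the set term (2 higher and 2 lower) and the fit without WT library 1 (1 higher and 3 lower), so over the fits that left out a library the counts ran from 0 to 1 higher and 0 to 3 lower. The wider list without the 10 genes gave 10 higher and 0 lower. It gave 3 higher with a mean of at least 50, where fewer genes are tested, and from 4 to 11 higher and 0 to 2 lower with a library left out. Lower calls numbered 1 with a pseudocount of 5, 1 in DESeq2 and 3 with the set term. The replicate block gave 8 higher and 0 lower, and 0 of the 10 genes. Replicate numbers do not pair these libraries: deviations of same-numbered libraries correlated at 0.446, 0.7 and -0.624. The log2 change of Id3 reversed to 0.12 with the set term and ran from -0.43 to 0.06 with a library left out. That of Bambi ran from -0.79 to 1.88 with a library left out and was 2.19 with the set term. Of 169 refits of the 10 genes 5 reversed and 8 newly passed. Of 165 refits of the other genes that rose 130 kept the call, 35 lost it in the same direction and 0 reversed. Except where stated, the cause was not tested. With 1508518 reads or more per library, Gdf6, Grem1, Gpc3 and Tll1 rest on few WT reads (2, 7, 13 and 16). Their folds are limited by counting. Bambi is limited by counting in WT library 1 (0 reads) and KO library 3 (2 reads). Its values also divided by library set, with set B 9.46-fold above set A in the mean.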

Other observations

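Several genes of the wider BMP list lay under the minimum for testing and are given as reads. Chrd, which encodes the BMP antagonist chordin, had 3 reads over the WT label and 29 over the KO label, a ratio per library scale of 9.45 (95% exact binomial interval 2.93 to 48.5, counting error only). Tnfrsf11b, which encodes the decoy receptor osteoprotegerin, had 3 against 15 reads (ratio 4.89, interval 1.38 to 26.3). Gata2, a zinc finger factor gene, had 17 against 57 reads, with 1.3, 7.6 and 6.4 against 14.5, 29.2 and 8.3 normalized counts and no overlap. Fst, which encodes follistatin, had 12 against 5 reads (ratio 0.407, interval 0.112 to 1.24).

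Id4, the remaining ID gene, was scarce and divided by library set, not by genotype label. It had 0 normalized counts in WT library 1 and 0 and 1.2 in KO libraries 1 and 3, against 10.1, 10.9 and 8.6 in the other 3 libraries. The same division was seen for Twist1, a helix-loop-helix factor gene, at 21.3, 21.7 and 19.0 against 73.1, 77.2 and 52.4 normalized counts. Both were chosen after seeing the values.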
